A study of Rattus norvegicus with 10 samples.

Results

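The leucine tRNA fragments of the rat brain were 15 of the 2262 tRNA fragments listed for the series. They were selected by the tRNA name, which gives the amino acid and the anticodon, with any first and last position allowed. The 15 came from 3 of the 69 listed tRNAs. The tRNA with the anticodon CAG gave 8 fragments, the one with AAG gave 5 and the one with CAA gave 2. Leucine was singled out with its levels in both conditions already known, because it was the 1 amino acid of 19 whose summed level had a lower mean in the ischemic group. Its difference between conditions is therefore described without a p-value. Each fragment is the listed sequence of a small RNA, with its first and last position on the tRNA and its read count in every library.

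The samples were small RNA libraries from the brains of 5 adult male Sprague-Dawley rats, numbered 45, 52, 61, 71 and 72, in which the right middle cerebral artery had been blocked with a suture and reopened. Brain tissue was taken 24 h later, the rats having been chosen for a neurologic deficit. The ischemic group was the right brain of the 5 rats, and the control group was the uninjured left brain of the same 5 rats, which had the same operation and the same vessel blocked on the other side. Control libraries totalled 5150335 to 42674116 reads and ischemic libraries 5125962 to 12970429, and the leucine reads among them were 703 to 8607 and 277 to 791.

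A further label, the source of the tissue, went against the side of the brain in 4 of the 10 libraries. It read control for the right brain of rats 45 and 52, and ischemic for the left brain of rats 71 and 72. The side of the brain, given in the title of every library, was used to form the groups, and the main results are also given for the 6 libraries whose label matched the side. Whole tissue was used, so fewer cells of a type and less RNA per cell cannot be told apart.

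Transfer RNAs carry amino acids to the ribosome, and several leucine tRNAs with different anticodons read the leucine codons. Leucine and serine tRNAs are class II tRNAs, which carry a long variable arm that most other tRNAs lack, and the tRNA-Leu(CAA) genes of mammals contain an intron. Stress nucleases such as angiogenin cut tRNAs in the anticodon loop, whereas shorter 5′ fragments often end in the D arm, the first stem and loop after the 5′ end. In the RefSeq annotation of assembly GRCr8, used for names and lengths only, leucine genes were present for 5 anticodons. There were 25 genes for CAG, 21 for AAG, 3 for CAA, 3 for TAG and 2 for TAA, and no fragment of the last pair of anticodons was in the list.

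The leucine fragments fell into a short and a long form, told apart by the last position. The first set is shown because it carried nearly all leucine reads of the control brain. These are the 3 sequences of positions 1 to 26, written 5′ to 3′ with T for U, and the capitals mark the bases at which they differ.
tRNA-Leu(CAG) 1 to 26: gtcaggatgGccgagCggtctaaggc
tRNA-Leu(CAA) 1 to 26: gtcaggatgGccgagTggtctaaggc
tRNA-Leu(CAG) 1 to 26, variant: gtcaggatgAccgagCggtctaaggc
Counted from 1 at the 5′ end and with the main CAG sequence first, the CAA sequence differed by C16T and the variant by G10A.

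The second set is shown because it made up most AAG reads of the ischemic brain. These 4 sequences were all listed as positions 1 to 34 of tRNA-Leu(AAG), and the capitals mark bases beyond those of the shortest.
tRNA-Leu(AAG) 1 to 34, 32 nts: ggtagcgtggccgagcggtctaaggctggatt
tRNA-Leu(AAG) 1 to 34, first of 33 nts: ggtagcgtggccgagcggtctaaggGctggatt
tRNA-Leu(AAG) 1 to 34, second of 33 nts: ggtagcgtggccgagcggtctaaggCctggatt
tRNA-Leu(AAG) 1 to 34, 34 nts: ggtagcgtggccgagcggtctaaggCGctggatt
They shared their first 25 and last 7 bases and differed by the 0, 1 or 2 bases between them.

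The third set holds the longer fragments of tRNA-Leu(CAG), which began at position 1 or 3 and ended at position 34 or 35. The capital marks the base that the 34-nt sequence has beyond the 33-nt one.
tRNA-Leu(CAG) 1 to 34: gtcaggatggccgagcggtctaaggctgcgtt
tRNA-Leu(CAG) 1 to 35, 33 nts: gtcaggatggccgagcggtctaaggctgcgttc
tRNA-Leu(CAG) 1 to 35, 34 nts: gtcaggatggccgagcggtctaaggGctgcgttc
tRNA-Leu(CAG) 3 to 34: caggatggccgagcggtctaaggctgcgtt
tRNA-Leu(CAG) 3 to 35: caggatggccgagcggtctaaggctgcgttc
Of the 9 leucine fragments ending at position 34 or 35, 8 had a sequence shorter than the listed positions span, 5 by 2 bases and 3 by 1. A sequence shorter than its span was also listed for 403 of the 2247 fragments of other tRNAs (17.9%), and 56 of the 2247 (2.49%) lacked 2 or more bases.

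The last set holds the fragments outside both patterns. The capitals mark the anticodon in the first, and in the third the last 7 bases.
tRNA-Leu(CAG) 32 to 61, internal: gttCAGgtcgcagtctcccttggaggcgtg
tRNA-Leu(CAA) 74 to 106, 3′ end: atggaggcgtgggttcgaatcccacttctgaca
tRNA-Leu(AAG) 1 to 26 as listed: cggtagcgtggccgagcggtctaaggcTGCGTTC
The third had 34 nts for a listed span of 26. It began with 1 extra base, its next 26 bases were those of the AAG start, and its capital bases were those at the end of the CAG fragments of positions 1 to 35 and did not occur in the other AAG sequences. Its last position of 26, and its tRNA, are therefore uncertain. The letters GGCCGAG, searched on the given strand only, occurred in 12 of the 15 leucine sequences and in 16 of all 2262 (0.707%), the remaining 4 being the 4 serine fragments of the list.

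Levels are given in reads per 1000000 reads of the library (RPM), and errors are SD over the 5 libraries of a group. The leucine fragments together stood at 295, 237, 185, 136 and 202 RPM in the control libraries of rats 45, 52, 61, 71 and 72. In the ischemic libraries of the same rats they stood at 62.4, 47.7, 60.98, 83.7 and 48.2 RPM. The level was lower on the ischemic side in 5 of 5 rats, and the groups did not overlap. The means were 211 ± 59.3 and 60.6 ± 14.6 RPM (n = 5). The difference of mean log2 RPM was -1.79, or 3.45-fold lower in the ischemic group. In the 6 libraries whose label matched the side, the means were 239 ± 55.0 and 64.3 ± 17.97 RPM (n = 3).

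The summed level of all other tRNAs, most of it from glycine and valine tRNAs, was higher in the ischemic group, with a difference of mean log2 RPM of 3.91. The leucine share of all tRNA-derived reads was accordingly 1.04% ± 0.332 on the control side and 0.0227% ± 0.0138 on the ischemic side. The lowest control share, in rat 71, was 0.700% (95% Wilson interval 0.650 to 0.754), and the highest ischemic share, in rat 61, was 0.0426% (0.0398 to 0.0457). Such intervals cover counting error only, since amplified reads are not independent molecules. By control level leucine came after 4 other amino acids, glycine, valine, glutamic acid and histidine. Ischemic libraries held 1364045 to 4119056 tRNA-derived reads and control libraries 100418 to 570737, and a larger tRNA share lowers the RPM of everything else in a library. Relative to the reads outside the tRNA list, the leucine difference was -1.23 on the log2 scale. The part of the tRNA share in the leucine difference was not tested further.

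The summed levels of the 3 anticodons did not share a direction. Fragments of tRNA-Leu(CAG), the main leucine source, had 280, 223, 173, 128 and 187 RPM in the control libraries and 45.7, 34.5, 50.8, 69.8 and 36.2 RPM in the ischemic ones. Fragments of tRNA-Leu(CAA) had 13.3, 11.6, 9.41, 7.96 and 10.1 RPM against 2.47, 1.03, 3.39, 4.10 and 1.25 RPM. Fragments of tRNA-Leu(AAG) had 1.90, 2.41, 2.40, 0.777 and 4.15 RPM against 14.2, 12.2, 6.78, 9.75 and 10.8 RPM. The CAG and CAA sums were thus lower in every ischemic library than in any control library, and the AAG sum was higher in every ischemic library than in any control library.

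On the log2 scale the difference of means was -2.06 for CAG, -2.27 for CAA and 2.36 for AAG, and it was -2.13, -2.13 and 2.01 in the 6 libraries whose label matched the side. Of the control AAG mean of 2.33 RPM, 2.19 was the fragment listed as positions 1 to 26, whose tRNA is uncertain. The size of the AAG difference depends on that fragment, and without it the AAG means were 0.138 ± 0.130 and 9.35 ± 3.23 RPM. The CAG fragments ending at position 34 or 35 were also higher in the ischemic group, at 0.156 ± 0.248 and 6.86 ± 4.16 RPM. The lower CAG sum came from its fragments ending at position 26, at 198 ± 56.9 and 39.6 ± 15.5 RPM. Within the long form the CAG and AAG sums thus moved in the same direction. Within the leucine reads, the CAG share was 93.8% ± 0.700 on the control side and 77.5% ± 5.51 on the ischemic side. The AAG share was 1.12% ± 0.602 and 18.7% ± 6.80, and its groups did not overlap. The CAA share was 5.06% ± 0.483 and 3.83% ± 1.45, with overlapping groups. In the control group the order of levels was CAG, CAA, AAG, each step beyond the spread, while the AAG level was above CAA in every ischemic library.

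Grouped by last position, the leucine fragments moved in opposite directions. The 4 fragments ending at position 26 summed to 295, 236, 185, 136 and 201 RPM in the control libraries and to 37.0, 24.8, 50.4, 69.1 and 34.04 RPM in the ischemic ones. The means were 211 ± 59.2 and 43.1 ± 17.2 RPM, and the difference of mean log2 RPM was -2.33. This sum, the short form, follows the listed positions and includes the AAG fragment with the 34-nt sequence. Without that fragment the means were 209 ± 59.0 and 41.7 ± 16.8 RPM. The 9 fragments ending at position 34 or 35 summed to 0, 0.852, 0, 0.194 and 0.422 RPM in the control libraries and to 24.5, 22.1, 8.40, 13.07 and 13.05 RPM in the ischemic ones. In every ischemic library the short form lay below, and the long form above, every control library. In the 6 libraries whose label matched the side the short form had means of 239 ± 55.1 and 51.2 ± 17.5 RPM, and the long form 0.284 ± 0.492 and 11.5 ± 2.69 RPM (n = 3).

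As a share of leucine reads, the short form was 99.8% ± 0.145 on the control side and 69.4% ± 13.7 on the ischemic side. The lowest control share was 99.6% in rat 52 (95% Wilson interval 99.1 to 99.8). The ischemic shares ran from 51.99% (46.1 to 57.8) in rat 52 to 82.7% (79.9 to 85.2) in rat 61. Without the 34-nt AAG fragment the shares were 98.8% ± 0.653 and 67.2% ± 13.19. The long form still made up the smaller share in every ischemic library, 13.8% to 46.2%. The ischemic libraries of rats 45 and 52, which had the largest long-form shares, are the 2 right brains whose source label read control.

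Of the CAG reads, 99.9% on the control side and 82.2% ± 10.6 on the ischemic side ended at position 26. Of the CAA reads, the shares were 100% and 78.6% ± 9.76, the ischemic values resting on 6 to 44 reads a library and the remainder being the 3′ fragment, at 2 to 6 reads a library. Of the AAG reads, they were 91.6% ± 10.5 and 15.0% ± 13.9, and the control values rested on 4 to 177 reads a library. The listed AAG fragment of positions 1 to 26, whose sequence is uncertain, makes up the whole of that AAG share.

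The most abundant leucine fragment was tRNA-Leu(CAG) 1 to 26. In the same order of rats it had 1594, 1550, 918, 645 and 7808 control reads, or 275, 220, 169, 125 and 183 RPM. In the ischemic libraries it had 170, 137, 572, 326 and 275 reads, or 32.2, 23.6, 44.1, 63.6 and 31.2 RPM. No ischemic library reached the lowest control library, and the means of 195 ± 56.4 and 38.9 ± 15.6 RPM differed 4.99-fold. It was the 10th most abundant of all 2262 fragments by control mean and ranked 167 by ischemic mean. Its edgeR log2 fold change, ischemic against control, was -2.32 with an SE of 0.45, and -2.26 in the 6 libraries whose label matched the side.

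The other 26-nt sequences moved in the same direction. The CAA fragment of positions 1 to 26 had 77, 82, 51, 41 and 429 reads in the control libraries and 10, 4, 38, 19 and 8 in the ischemic ones, with means of 10.5 ± 2.06 and 2.03 ± 1.29 RPM and a log2 fold change of -2.36 (SE 0.56). The G10A variant of the CAG fragment had 27, 16, 21, 13 and 180 reads against 3, 2, 11, 2 and 11, with means of 3.51 ± 1.06 and 0.680 ± 0.374 RPM and a log2 fold change of -2.28 (SE 0.51). For each, every ischemic library lay below every control library.

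Both were also expressed as a ratio to the main CAG fragment. CAA reads were 5.51% ± 0.554 of the main CAG reads on the control side and 4.84% ± 1.78 on the ischemic side. Variant reads were 1.87% ± 0.529 and 1.95% ± 1.25 of them. The groups overlapped in both ratios. Each sequence differs from the main CAG fragment at 1 base, and which tRNA the reads of such near-identical sequences came from is uncertain.

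The AAG fragment listed as positions 1 to 26 behaved less clearly. It had 11, 15, 13, 3 and 168 reads in the control libraries and 12, 1, 33, 7 and 6 in the ischemic ones. The means of 2.19 ± 1.20 and 1.41 ± 1.01 RPM differed by less than the spread, the ischemic side was lower in 2 of 5 rats, and the log2 fold change was -0.66 (SE 0.57).

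The long AAG fragments were nearly absent from the control brain. The 32-nt sequence of positions 1 to 34 had 0, 1, 0, 0 and 6 reads in the control libraries and 33, 39, 38, 23 and 42 reads in the ischemic ones. Its means were 0.0565 ± 0.0774 and 5.03 ± 1.51 RPM, with a log2 fold change of 5.62 (SE 0.68). Of its 7 control reads, 6 were in the library of rat 72, and without that library the log2 fold change was 6.38. The first 33-nt sequence had 0, 1, 0, 1 and 3 reads against 20, 14, 11, 12 and 34, with a log2 fold change of 4.88 (SE 0.69). All 5 ischemic libraries lay above all 5 control libraries for both. When the list was scaled to its own tRNA reads instead of to the library, these fold changes were 1.72 and 1.02 and neither was called, where 166 of the 876 fragments were called higher, while the main CAG, CAA and variant sequences of 26 nts were at -6.07, -6.06 and -6.05. The AAG fragment listed as positions 1 to 26 was at -4.40 under that scaling, against -0.66 with library totals. The same scaling moved the median log2 fold change of all tested fragments from 4.23 to 0.34. As the control counts of both long AAG sequences are near 0, the size of their fold changes is uncertain. Set against 3 reads in every control library, 0.430 RPM on average, the ischemic mean was 11.7-fold higher for the 32-nt sequence. For the first 33-nt sequence it was 6.16-fold higher.

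The remaining pair of AAG sequences was read in ischemic libraries only. The 34-nt sequence, the one that fills positions 1 to 34 without a gap, had 0 reads in every control library and 9, 10, 4, 6 and 8 reads in the ischemic ones. As 0 reads can stand for as many as 3, which is 0.430 RPM on average over the control libraries, its ischemic mean of 1.16 ± 0.593 RPM was at least 2.71-fold higher. The second 33-nt sequence had 1, 7, 2, 2 and 5 ischemic reads with a mean of 0.501 ± 0.428 RPM, and 3 of the 5 libraries lay under the floor, so no fold is given. Of the long AAG reads of the ischemic group, 55.6% ± 8.18 lacked 2 bases of the span, 32.7% ± 7.31 lacked 1 and 11.8% ± 3.37 lacked none.

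The long CAG fragments differed among themselves in their first position. Those beginning at position 1 summed to 0.123 ± 0.188 RPM on the control side and to 3.06 ± 0.557 RPM on the ischemic side. Those beginning at position 3 summed to 8.91, 6.55, 0.848, 2.15 and 0.567 RPM in the ischemic libraries of rats 45, 52, 61, 71 and 72. They varied over a far wider range than those beginning at position 1, and their share of the long CAG reads was 71.2%, 65.5%, 20.4%, 45.8% and 19.2%, on 24 to 66 reads a library. The highest values were again those of the right brains of rats 45 and 52, and without the libraries whose label went against the side the ischemic mean of the start-3 fragments was 1.19 ± 0.842 RPM in place of 3.80 ± 3.73 RPM.

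Singly, these fragments had few reads. The fragment of positions 3 to 34, the most abundant internal one, had 20, 24, 6, 5 and 3 reads in the ischemic libraries and 1 in all control libraries together. The fragment of positions 3 to 35 had 27, 14, 5, 6 and 2 against 1. Among those beginning at position 1, the fragment of positions 1 to 34 had 10, 5, 14, 5 and 11 ischemic reads, and the 33-nt and 34-nt sequences of positions 1 to 35 had 6, 13, 24, 5 and 7 and 3, 2, 5, 3 and 3. In the control libraries none of the 3 had more than 3 reads.

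Fragments ending beyond position 35 were rare. The internal CAG fragment of positions 32 to 61, which contains the anticodon, had 1, 1, 1, 0 and 4 reads in the control libraries and 2, 3, 22, 6 and 7 in the ischemic ones, with means of 0.119 ± 0.0750 and 0.911 ± 0.533 RPM. The CAA fragment of positions 74 to 106, the only 3′ one, had 0 control reads and 3, 2, 6, 2 and 3 ischemic reads. Its ischemic mean of 0.421 ± 0.0961 RPM is under the mean control floor of 0.430 RPM, so no fold is given. The deepest control library, that of rat 72, alone allows no more than 0.0703 RPM, below the lowest ischemic value of 0.340 RPM.

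Of the 15 fragments, 6 had enough reads to be tested and 9 did not, most of the latter being long forms near 0 in the control group. By edgeR's quasi-likelihood test with Benjamini-Hochberg adjustment over all 876 tested fragments, 2 leucine fragments were called higher in the ischemic group, as were 94.5% of all tested fragments, and 3 were called lower, as were 3.31% of all. The 2 called higher, the 32-nt and the first 33-nt AAG sequence, met the minimum of 10 reads in 5 libraries through the ischemic group alone, having at most 6 and 3 reads in a control library, and the CAA fragment and the G10A variant, both called lower, met it through the control group, with at least 10 reads in all 5 control libraries and in 3 and 2 ischemic ones. These 4 passed through the group in which they were high, so their calls are no support for a difference. The main CAG fragment alone reached 10 reads in all 10 libraries. In 3 of the 15 every control library lay above every ischemic library, as in 0.752% of all listed fragments. In 11 of the 15 every ischemic library lay above every control library, as in 82.0% of all. These counts and calls belong to the contrast on which leucine was chosen, and they are given as a description beside the background. The list also favours the ischemic side, since no ischemic library was at 0 for any of the 2262 fragments, while 599 were above 0 in every control library, 4 of the leucine fragments among them.

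In the control brain most reads listed as positions 1 to 26 were leucine reads. Leucine fragments held 92.2% ± 1.82 of such reads on the control side and 48.1% ± 11.2 on the ischemic side. The 8 fragments of other tRNAs with these positions summed to 17.3 ± 4.31 RPM on the control side and 44.9 ± 12.4 RPM on the ischemic side, a log2 difference of 1.37. Of the 7 tested, 5 were called higher and 1, from tRNA-Glu(TTC), was called lower, with 8.30 ± 1.92 and 2.90 ± 0.979 RPM. Among the 5′ reads of all other tRNAs, those ending at position 26 were 0.0983% ± 0.0570 and 0.0171% ± 0.0105. Over all fragments with a span of 26 bases, wherever they began, the leucine share was 56.3% ± 11.8 and 13.3% ± 6.25.

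Which end of the tRNA the reads came from was compared within libraries. Leucine was selected on its summed level, and the main CAG fragment, which begins at position 1, made up most of that sum. It had 195 of 211 RPM on the control side and 38.9 of 60.6 RPM on the ischemic side. The leucine share is therefore not independent of the selection, and the p-values below are given as a description. Leucine reads began at position 1 in 95.5% ± 6.22 and reads of all other tRNAs in 95.8% ± 2.88 (n = 10 libraries). The mean difference was -0.240 percentage points (two-sided exact sign-flip permutation test, p = 0.928), and it pooled opposite signs. In the 5 control libraries the leucine share was the higher one each time, 99.9% ± 0.0461 against 94.7% ± 3.70, a difference of 5.23 points (exact p = 0.0625, the smallest that 5 libraries allow). In the 5 ischemic libraries it was the lower one each time, 91.2% ± 6.25 against 96.9% ± 1.41, a difference of -5.71 points (exact p = 0.0625). Whether these differences differ between the groups was not tested. In the control libraries whose label matched the side, the leucine and other shares were 99.9% ± 0.0312 and 96.8% ± 0.671 (n = 3). In the ischemic ones they were 95.7% ± 0.710 and 97.6% ± 1.21 (n = 3). Each rat gave 2 of the 10 libraries.

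Serine tRNAs, the other class II tRNAs of the list, gave 4 fragments and 1.09 ± 0.499 RPM on the control side and 3.46 ± 0.700 RPM on the ischemic side. Their most abundant fragment, with 32 nts for a listed span of 31, is shown for comparison with the leucine sequences.
tRNA-Ser(TGA) 1 to 31: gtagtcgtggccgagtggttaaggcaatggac
All 4 listed serine fragments begin at position 1 and none ends at position 26. The serine share of reads beginning at position 1 was therefore 100% in every library, on as few as 2 reads, and a leucine share could only equal it or lie below. The leucine share differed from it by a mean of -0.0672 points in the control libraries and -8.84 points in the ischemic ones, with -4.46 points over all 10. Over all 10 the value was -1.13 points when first positions 1 to 3 were counted as the 5′ end, and it was -2.19 points in the 6 libraries whose label matched the side.

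Within leucine, the difference between the groups in the share of reads beginning at position 1 was -8.78 points, and -4.20 points in the 6 libraries whose label matched the side. The CAG fragments beginning at position 3 made up 47 of the 52 ischemic reads that did not begin at position 1 in rat 45, 38 of 43 in rat 52 and 11 of 19 in rat 71. They made up 11 of 39 in rat 61 and 5 of 15 in rat 72. Counting first positions up to 3 as the 5′ end reduced the difference to -2.16 points.

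Between anticodons, 6 comparisons of end classes were made in libraries with at least 20 reads of both. The listed fragments fix the sign of all but 1 of them, since every AAG fragment begins at position 1 and the internal fragments are all CAG. AAG, at 100%, had a 5′ share 9.07 points above that of CAG over 6 libraries, and 4.51 points in the 3 of these whose label matched the side. With first positions 1 to 3 counted as the 5′ end the difference was 1.60 points. The 5′ share of CAA against CAG, which the list does not fix, differed by -1.86 points over 7 libraries, CAA being higher in 4 and lower in 2 (two-sided exact sign-flip permutation test, p adjusted over the 6 comparisons = 0.600). This value pooled both conditions, with 0.0716 points in the 5 control libraries and -6.70 points in the 2 ischemic ones. All control CAA reads began at position 1, so CAA could not be lower in a control library. Without the ischemic library of rat 61 the pooled difference was -0.736 points.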

How the data were processed

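Small RNA libraries of the right and left brain of 5 rats, 10 in all, were re-analysed. The authors discarded reads of low quality or short length, searched miRBase first and then, allowing mismatches, databases of further non-coding RNAs, and placed tRNA fragments on the Genomic tRNA Database. The genome build in the submitters' processing notes is rn4; chromosome positions of the fragments are not given in the sources used here. The authors deposited raw read counts for each listed sequence in each library. Beside them the authors deposited RPM values, headed TPM, which are these counts per 1000000 library reads with no length scaling. Each sequence has its first and last position and the length of its tRNA, and sequences are printed as listed. Leucine gene names and lengths are from the RefSeq annotation of assembly GRCr8.

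Library totals, the quotient of reads and RPM, were 5125962 to 42674116. A minimum of 10 reads in 5 or more libraries left 876 fragments, which were fitted by the quasi-likelihood test of edgeR 4.0.16 (R 4.3.3), unpaired, with library totals as sizes, Benjamini-Hochberg adjustment over all of them and a threshold of 0.05. The SE printed with an edgeR log2 fold change was derived as the absolute fold change divided by the square root of the quasi-likelihood F statistic. It is an approximation where control counts are near 0. DESeq2 1.42.0 was an alternative. Shares were compared within libraries by two-sided exact sign-flip tests, whose smallest p is 0.00195 for 10 libraries. Log2 differences of sums are differences of mean log2 RPM. Where 0 reads were counted, up to 3 are possible from counting error alone, or 0.0703 to 0.585 RPM by library. No 2 libraries had identical reads.

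Both libraries of a rat come from the same animal, so the rat number pairs them. The correlation of their deviations from the group means over 876 fragments was 0.0615, 0.142, -0.148, 0.253 and 0.0113 for rats 45, 52, 61, 71 and 72, and a fit with the rat as a block was an alternative. Others were groups formed by the source label, the 6 libraries whose label matched the side, other scalings and read filters, reads outside the list as denominator, sequences as long as their span, a wider definition of the 5′ end, each group alone and leaving out each library.

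The leucine fragments, the comparison tRNAs and the tests were chosen with earlier results of these data known. The rule for fragments described singly took the most abundant fragment of each leucine tRNA and end class, the 8 with the highest mean RPM, the most extreme fold changes with a mean of at least 20 reads, and the most abundant serine fragment. The remaining leucine fragments and the fragment of tRNA-Glu(TTC) were added after their values were seen, the former so that all 15 are accounted for. No miRNA file or cell type marker was used.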

Additional observations from a re-analysis of the deposited data

Results flagged for a closer look

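In 6 of 92 groups of 5 libraries examined, 1 library stood apart from the others by Dixon's 95% critical value. For normally distributed values chance alone exceeds it in about 1 of 20 groups, a rate that does not apply to counts near 0. All 6 were control groups of long CAG fragments with a median of 0 and 1 to 3 reads in the library concerned. In such a group 1 read in 1 library is enough to be flagged. In the control library of rat 52, the fragment of positions 3 to 35 had 0.142 RPM, the sum of the long fragments beginning at position 3 also had 0.142 RPM from that same read, and the 33-nt fragment of positions 1 to 35 had 0.426 RPM. In the control library of rat 72, the deepest of the series, the fragment of positions 3 to 34 had 0.0234 RPM, and the fragment of positions 1 to 34 and the 34-nt fragment of positions 1 to 35 had 0.0703 RPM each.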

How the results depend on the processing

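Grouping by the source label, which moves 4 libraries, ended every call among all 876 tested fragments (0 higher, 0 lower), leucine included. It left log2 differences of -0.50 for all leucine, -0.49 for CAG, -0.28 for CAA and 0.053 for AAG, and -0.150 points in the share of tRNA reads. It reversed the CAG share (0.0747 points), the 5′ share (3.73) and the share ending at position 26 (4.94), left the 3′ share at 0.0593, and reversed the log2 fold changes of the 32-nt AAG fragment (-0.092) and the AAG fragment of positions 1 to 26 (0.052). The 6 libraries whose label matched the side gave 2 higher and 3 lower calls (818 and 10 of all 876), with a 5′ share difference of -4.20 points. Counted relative to tRNA reads (TMM factors) 0 leucine fragments were called higher and 4 lower (166 and 96 of all 876), and with DESeq2's own size factors 1 and 4 (221 and 91). A filter of 1 read gave 11 higher and 3 lower (2117 and 35 of all 2262). With 10 reads required in all libraries 1 leucine fragment was tested, giving 0 higher and 1 lower (130 and 10 of all 145). With reads outside the list as denominator the log2 difference was -1.23 for leucine and -1.51 for CAG, and with sequences as long as their span only it was -2.27 for leucine. Counting first positions 1 to 3 as the 5′ end gave -2.16 points for the 5′ share.

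The 5′ share of leucine against all other tRNAs, -0.240 points in all 10 libraries, had opposite signs in the groups, 5.23 in the control and -5.71 in the ischemic libraries alone. It was 0.595 in the 6 libraries, 1.64 with the wider 5′ end, and -1.55 to 1.08 when each library was left out, above 0 without the ischemic library of rat 45, 52 or 72. Against serine, where the list fixes the sign, it was -3.19 to -4.95 with a library left out, -2.19 in the 6 libraries, -1.13 with the wider 5′ end, -0.0672 and -8.84 in control and ischemic libraries alone, and -4.46 paired by rat. The 5′ share of CAA against CAG was 0.0716 in control libraries alone and -6.70 in the 2 ischemic libraries compared. It was -2.20 to -0.736 when each library was left out.

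The replicate block, paired by rat, gave 2 higher and 3 lower calls (827 and 27 of all 876). It gave -2.37 for the main CAG fragment and changed no call on a leucine fragment. Leaving out each library gave 2 higher and 3 lower calls each time (827 to 828 and 23 to 31 of all 876). The 2 higher calls passed the read filter through the ischemic libraries alone and 2 of the 3 lower calls through the control libraries, and leucine was chosen on this contrast, so the recurrence of these counts says nothing about stability. The ranges were -1.93 to -1.65 for leucine, -2.22 to -1.93 for CAG, -2.51 to -2.01 for CAA, 2.01 to 2.61 for AAG, and -33.7 to -26.0 points for the share ending at position 26. With the 34-nt AAG fragment not counted as ending at position 26, an alternative chosen after seeing the data, that share differed by -31.6 points. The cause of these changes was not tested. Single long fragments, at 0 to 6 reads in a control library, are limited by depth.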
